A study of Mus musculus with 11 samples.

Results

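H3K27 acetylation was described at 9 genes of the nuclear receptor family: the retinoid receptor genes Rxra, Rxrb, Rara and Rarg, the glucocorticoid receptor gene Nr3c1, the NR4A genes Nr4a1 and Nr4a3, and the REV-ERB genes Nr1d1 and Nr1d2. Members were all regions that the authors' deposited table assigns to one of these 9 symbols. They were 88 of 56342 regions and covered 8 of the 9 genes, since no region in the table used here carried the symbol Rxrb. The cells were of the murine pre-T line Beko. Their H3K27ac, a histone mark found at active promoters and enhancers, was measured by chromatin immunoprecipitation and sequencing (ChIP-seq) in 2 libraries per condition. The conditions were DMSO as control, 0.01 mg/ml of apicidin, which blocks histone deacetylases and is described by the submitters as acting on HDAC3, and 10 mg/ml of DAPT, each for 24 h and with doses printed as in the labels. DAPT is a gamma-secretase inhibitor (GSI) and thereby prevents Notch receptors from being cut into their active form. RBPJ, to which active Notch binds on DNA, was mapped in control cells with 2 libraries, and each condition had 1 input. A single cell line was used, and no label tells whether libraries of a condition were separate cultures: the p-values here reflect the spread between libraries, which may be technical.

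Nuclear receptors are transcription factors, most of which are switched by small lipophilic ligands. Retinoic acid receptors (RARs) bind DNA as pairs with retinoid X receptors (RXRs), recruit corepressors with HDAC3 when no ligand is bound, and exchange them for acetyltransferases when retinoic acid binds. The glucocorticoid receptor drives death of thymocytes exposed to steroid hormones. NR4A receptors are induced within minutes by antigen receptor signals and take part in deletion of self-reactive thymocytes, and the REV-ERB receptors repress clock genes through corepressors and HDAC3.

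Promoter windows of 4 members are shown because regions of these genes carry the changes described below. Rara and Rarg gained acetylation at a start site that overlapped RBPJ, and Nr1d2 lost it at its start. The region nearest the Rxra start had the largest decrease among the members. Each sequence shown is a RefSeq window of the GRCm38.p6 build, from 250 bases before to 50 after an annotated start. Such windows were at hand for 8 of the 9 genes (14 in all): Rxrb had 2 and Nr3c1 none. The authors' coordinates are on mm9, so windows were matched to regions by gene symbol alone, and which annotated start a region covers was not matched for genes with several. Rarg has a second window (chr15:102246451-102246750), which is not printed. By spacing from the Nr4a1 start on the same chromosome, the Rarg region that rose lies nearer that window than the printed one. Capitals mark 4 searched motifs on either strand: TGGGAA, the core of the RBPJ site, its longer form GTGGGAA (added after the sequences were seen, and containing the core), AGGTCA, the core of retinoid and REV-ERB receptor sites, and CACGTG, the E-box of clock factors.
Rxra, plus strand, chr2:27676951-27677250: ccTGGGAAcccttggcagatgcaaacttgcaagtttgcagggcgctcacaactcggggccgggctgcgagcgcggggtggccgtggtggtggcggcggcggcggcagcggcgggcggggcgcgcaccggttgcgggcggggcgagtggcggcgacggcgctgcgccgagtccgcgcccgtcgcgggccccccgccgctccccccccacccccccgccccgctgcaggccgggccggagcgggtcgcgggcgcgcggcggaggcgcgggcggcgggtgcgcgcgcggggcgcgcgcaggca
Rara, plus strand, chr11:98937446-98937745: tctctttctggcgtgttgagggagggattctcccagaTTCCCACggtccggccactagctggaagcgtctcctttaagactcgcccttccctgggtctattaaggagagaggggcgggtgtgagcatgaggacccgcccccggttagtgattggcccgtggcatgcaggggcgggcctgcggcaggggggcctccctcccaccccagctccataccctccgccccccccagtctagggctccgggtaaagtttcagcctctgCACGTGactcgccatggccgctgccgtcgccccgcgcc
Rarg, minus strand, chr15:102257473-102257772: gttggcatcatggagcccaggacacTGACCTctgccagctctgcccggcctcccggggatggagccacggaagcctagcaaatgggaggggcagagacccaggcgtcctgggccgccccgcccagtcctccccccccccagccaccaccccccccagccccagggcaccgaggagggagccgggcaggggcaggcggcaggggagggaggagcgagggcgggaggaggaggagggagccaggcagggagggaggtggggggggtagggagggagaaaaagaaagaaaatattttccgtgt
Nr1d2, minus strand, chr14:18239057-18239356: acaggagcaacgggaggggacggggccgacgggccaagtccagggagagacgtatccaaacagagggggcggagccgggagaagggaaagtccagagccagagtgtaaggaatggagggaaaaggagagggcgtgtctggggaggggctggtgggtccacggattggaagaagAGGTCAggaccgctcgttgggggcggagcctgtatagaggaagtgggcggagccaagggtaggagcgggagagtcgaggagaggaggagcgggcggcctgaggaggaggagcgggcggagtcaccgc

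In the Rara window the minus strand held GTGGGAA 213 bases before the start, and an E-box began 12 bases after it. A neighbouring Rara window, which overlaps the printed one, held the same matches. The Rxra window held TGGGAA at its far end, 248 bases before the start. AGGTCA stood 77 bases before the start in Nr1d2 and, on the minus strand, 225 bases before it in the printed Rarg window. The other Rarg window held none of the marked motifs. TGGGAA occurred in 25.6% of all 32851 RefSeq promoter windows, GTGGGAA in 6.38%, AGGTCA in 16.3% and CACGTG in 7.15%. For comparison, GGGCGG, the GC box of SP factors, was in 10 of the 14 member windows and 35.7% of all. Both overlapping Rara windows are among the 10, and so are both windows of Rxrb, which had no H3K27ac region under its symbol. The member windows had from 51.7% to 83% G and C, against a median of 52.7% over all windows. TGACGTCA, the cAMP response element, was in 0 of 14 and 1.79% of all. Letters that match are a description of sequence, not of binding.

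H3K27ac at the 8 genes was spread unevenly. The authors' deposited table gives each region a base mean, the mean of normalised read counts over libraries, and gives no value for single libraries, so the spread between them is seen only through the standard error (SE) of each fold change. Nr3c1 had 47 regions, Rara 14, Nr1d1 12, Rxra 6, Nr4a1 4, Rarg and Nr1d2 2 each, and Nr4a3 1, against a median of 2 regions per gene over 12081 genes. Per kb of region, the region of each gene with its highest base mean had a base mean of 496 for Nr3c1, 342 for Nr1d2, 267 for Nr4a3 and also for Nr4a1, 242 for Rarg, 237 for Rara, 169 for Nr1d1 and 147 for Rxra. Other regions were higher per kb in Nr1d1 (250.03) and Rxra (160.5). The Nr3c1 region lay at percentile 99.5 of all regions on that scale and the Rxra region at percentile 73.2. Members were mostly weak and away from promoters, largely through Nr3c1. Their median base mean was 44.9 against 61.3 over all regions, and 54 of 88 lay below that overall median, 36 of them Nr3c1 regions. Of the 88, 6 covered a transcription start site (TSS), which is 6.82%, against 14% of all regions. Without Nr3c1 the median base mean was 74.1, 18 of 41 regions lay below the overall median, and 12.2% covered a TSS. RBPJ sites overlapped 5 of the 88 (5.68%, against 2.73% of all regions): the start regions of Rara and Rarg, a region 19.7 kb from the Nr4a1 start, and adjacent regions 62.9 and 63.3 kb from the Rxra start.

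Beko cells carried acetylation at the genes that define their labelled type. Of 16 T-lineage marker genes 15 had a region, with a median base mean of 2857 at the strongest region of each, and Cd7 had none in the table used here. Markers of other cells were sparser and weaker: 4 of 8 B-lineage, 2 of 8 myeloid, 3 of 8 erythroid, and 5 of 8 fibroblast and epithelial genes had a region, with median base means of 167, 769, 191 and 574. Their part in the results below was not tested.

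Apicidin raised acetylation at more member regions than it lowered. A region was called where the authors' adjusted p from DESeq2, computed over all regions, was under 0.05. By that rule 19 of the 88 regions rose and 7 fell in the authors' deposited table, while 9.69% of all regions were called higher and 14.1% lower (23.8% in either direction). The median log2 fold change of the 88 was 0.44, against 0.0040 over all regions, and 67 of 88 values were above 0. Without the 47 Nr3c1 regions, 12 of 41 rose, 7 fell and the median was 0.30. Off a TSS 16 of 82 rose and 6 fell, where 9.97% of all such regions were called higher and 10% lower (20% together). Many members are weak regions off a TSS, and such regions ran above 0 in general with apicidin, with a median of 0.13 for all regions off a TSS below the median base mean. Most of the called member increases, however, were at regions of at least that base mean. All such stronger regions off a TSS had a median of -0.03, with 17.4% called higher and 19.4% lower. The calls were split by gene: Rara, Nr3c1, Nr4a1, Rarg and Nr1d1 held 18 of the 19 increases, and Rxra held 4 of the 7 decreases. The counts are normalised, so higher or lower is relative to the other regions, and a shift shared by every region could be hidden.

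**Figure D1:**
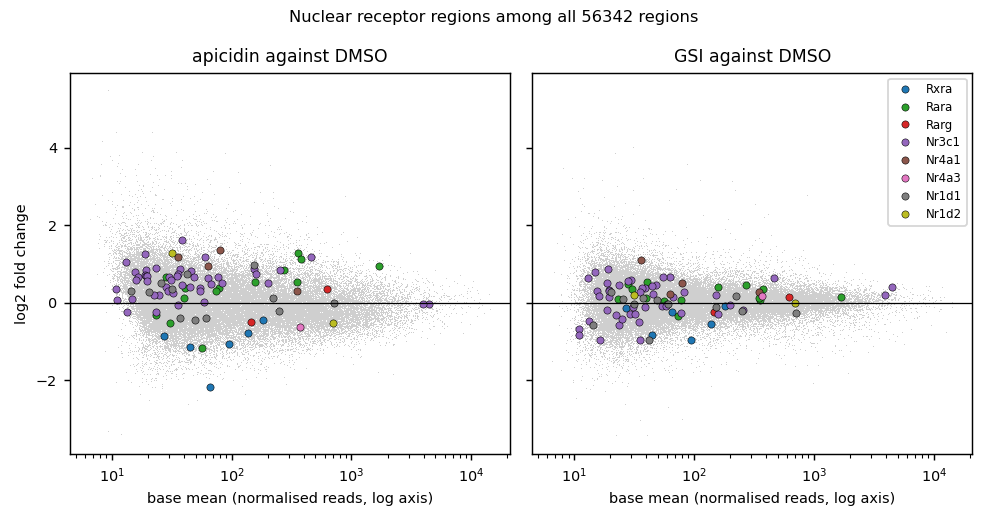
Log2 fold change against DMSO (vertical axis) and base mean in normalised reads (horizontal log axis) for all 56342 regions in grey and the 88 nuclear receptor regions in colour, with apicidin on the left and GSI on the right. With apicidin the 6 Rxra points all lie below 0 and the 4 Nr4a1 points above it, and with GSI the 6 Rxra points also lie below 0.

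With GSI the share of member regions called was close to that of all regions. Regions of low base mean lack an adjusted p for this comparison and count as untested, which left 30 of the 88. Of these 3 rose, 1 fell and 26 were not called in the authors' deposited table, which is 13.3% called, while 13.8% of all tested regions were called (6.62% higher, 7.17% lower). The median over the 88 was 0.12, and the largest called values were 0.64 upward at Nr3c1 and -0.96 downward at Rxra. Of the 26 regions called with apicidin, 8 were untested with GSI, and both comparisons use the same DMSO libraries. Of the 25 tested regions off a TSS 3 rose and 1 fell, against 7.2% and 8.35% of all such regions (15.6% in either direction). Of the 5 tested start regions 0 were called by DESeq2, against 9.61% of all (5.25% higher, 4.36% lower), and the count at an unadjusted p under 0.05 was 1 lower among all 6.

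The direct difference between treatments was tested as the log2 fold change with apicidin minus that with GSI, over the root of the summed squared SEs, taking p from the normal distribution, two-sided, and adjusting it by Benjamini-Hochberg over the whole table. The shared DMSO libraries make that SE an upper bound. By this test 6 member regions were higher with apicidin than with GSI and 4 lower, against 3.01% and 5.6% of all regions (8.61% in either direction). With an assumed correlation of 0.5 between both comparisons, to allow for the shared libraries, the counts were 16 and 5. Shares of all regions at that setting are not given here, and its smaller SE applies to every region, so the rise is not particular to members. Start regions held 3 of the 6 and 1 of the 4, and among all start regions 3.87% were higher and 21.8% lower (25.7% in either direction). The 82 regions off a TSS held 3 in each direction, against 2.87% higher and 2.96% lower among all such regions (5.84% together).

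Rara, which encodes retinoic acid receptor alpha, rose at both of its start regions with apicidin. Its main start region (mm9 chromosome 11, 98798200 to 98805300, 7100 bp, RBPJ-overlapping) had a base mean of 1685 and rose 1.93-fold with apicidin in the authors' deposited table (log2 0.95 ± 0.09 SE, adjusted p = 1.25e-24). Levels per condition can be derived from the base mean and both fold changes, if fold changes were not shrunken and groups count equally: they came to 1253 normalised reads in DMSO, 2417 with apicidin and 1385 with GSI. In the authors' deposited table the GSI value was 0.14 ± 0.09 (adjusted p = 0.341). The difference of 0.80 ± 0.13 between treatments passed its test (adjusted p = 3.37e-08). A start site of another Rara transcript, 2119 bp wide (98820106 to 98822225), rose 2.45-fold in the authors' deposited table (1.30 ± 0.14, adjusted p = 5.05e-18), with a GSI value of 0.08 ± 0.15. Its difference between treatments was 1.21 ± 0.21 (adjusted p = 6.02e-07). Both Rara start regions were thus higher under apicidin than under either other condition.

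Over its 14 regions Rara rose in 6, both starts included, and fell in 1. The region 4.70 kb from a Rara start, base mean 272, was called with both treatments in the authors' deposited table: 0.84 ± 0.16 with apicidin (adjusted p = 1.04e-06) and 0.47 ± 0.16 with GSI (adjusted p = 0.0343). Its difference between treatments was 0.38 ± 0.23 and did not pass (adjusted p = 0.421). Regions 2.95, 4.29 and 11.3 kb from a start rose by 1.14 ± 0.27, 0.53 ± 0.21 and 0.55 ± 0.15 in the authors' deposited table. The exception was a narrow region of 491 bp, 8.58 kb from a start and with a base mean of 56.6, which fell by 1.17 ± 0.35 (adjusted p = 0.0055) in the authors' deposited table.

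Of the 3 genes with changes most like those of the Rara start region, by the distance between the pair of fold changes among the strongest regions of 10777 genes, Tfeb and Krr1 were the nearest. Their values in the authors' deposited table were 0.94 and 0.95 with apicidin and 0.13 for each with GSI.

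Rarg, which encodes retinoic acid receptor gamma, also rose at its start. Its RBPJ-overlapping start region (chromosome 15, 102076059 to 102078652), base mean 626, rose 1.29-fold with apicidin in the authors' deposited table (0.36 ± 0.12, adjusted p = 0.0102), with 0.14 ± 0.12 for GSI. The derived levels were 554 in DMSO, 713 with apicidin and 611 with GSI, and the difference between treatments, 0.22 ± 0.17, did not pass (adjusted p = 0.600). The other Rarg region, 2.18 kb away, had values of -0.50 ± 0.21 (adjusted p = 0.0643) and -0.24 ± 0.22 in the authors' deposited table and passed neither test.

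Rxra, which encodes the RXR alpha partner of both receptors, went in the opposite direction. All 6 of its regions had negative values with both treatments in the authors' deposited table, and 4 fell with apicidin. The region 166 bp from the Rxra start (chromosome 2, 27532888 to 27533484, base mean 65.6) fell to 0.222 times its DMSO value in the authors' deposited table (log2 -2.17 ± 0.34, adjusted p = 3.37e-09). The derived levels were 95.1 in DMSO, 21.1 with apicidin and 80.8 with GSI, so the apicidin level stood apart from both others. GSI was untested there (-0.23 ± 0.31), and the difference between treatments was -1.94 ± 0.46 (adjusted p = 6.90e-04).

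At the distal Rxra regions both treatments had negative values, and their difference was not called. The RBPJ-overlapping region 63.3 kb away (27596065 to 27596672) was the only member region to fall with GSI, by 0.96 ± 0.26 (adjusted p = 0.0034), and it fell by 1.06 ± 0.25 with apicidin (adjusted p = 2.00e-04) in the authors' deposited table. Its derived levels were 144 in DMSO, 68.7 with apicidin and 74.1 with GSI. The RBPJ-overlapping neighbour at 62.9 kb fell by 1.15 ± 0.36 with apicidin (adjusted p = 0.0093) and had -0.84 ± 0.37 with GSI, untested, in the authors' deposited table. A region 35.4 kb away fell by 0.78 ± 0.21 with apicidin and had -0.55 ± 0.22 with GSI (adjusted p = 0.0770) there. The strongest Rxra region, 67.5 kb away with a base mean of 182, passed neither test in the authors' deposited table, at -0.44 ± 0.18 (adjusted p = 0.0640) and -0.09 ± 0.19. The remaining one, 33.9 kb away, had -0.86 ± 0.44 with apicidin (adjusted p = 0.154) there. Differences between treatments passed at none of these distal regions (adjusted p from 0.590 to 0.963).

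Rxrb, the RXR beta gene, had no region under its own symbol. RefSeq lists Slc39a7, a zinc transporter gene, as its direct neighbour. The start region assigned to Slc39a7 (chromosome 17, 34167108 to 34171285), looked at for this reason after values were seen, had a base mean of 1546. It fell by 0.33 ± 0.09 with apicidin (adjusted p = 0.0025) and had -0.17 ± 0.09 with GSI (adjusted p = 0.249) in the authors' deposited table. Whether it also covers the Rxrb start was not determined, since the table names 1 transcript per region.

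**Figure D2:**
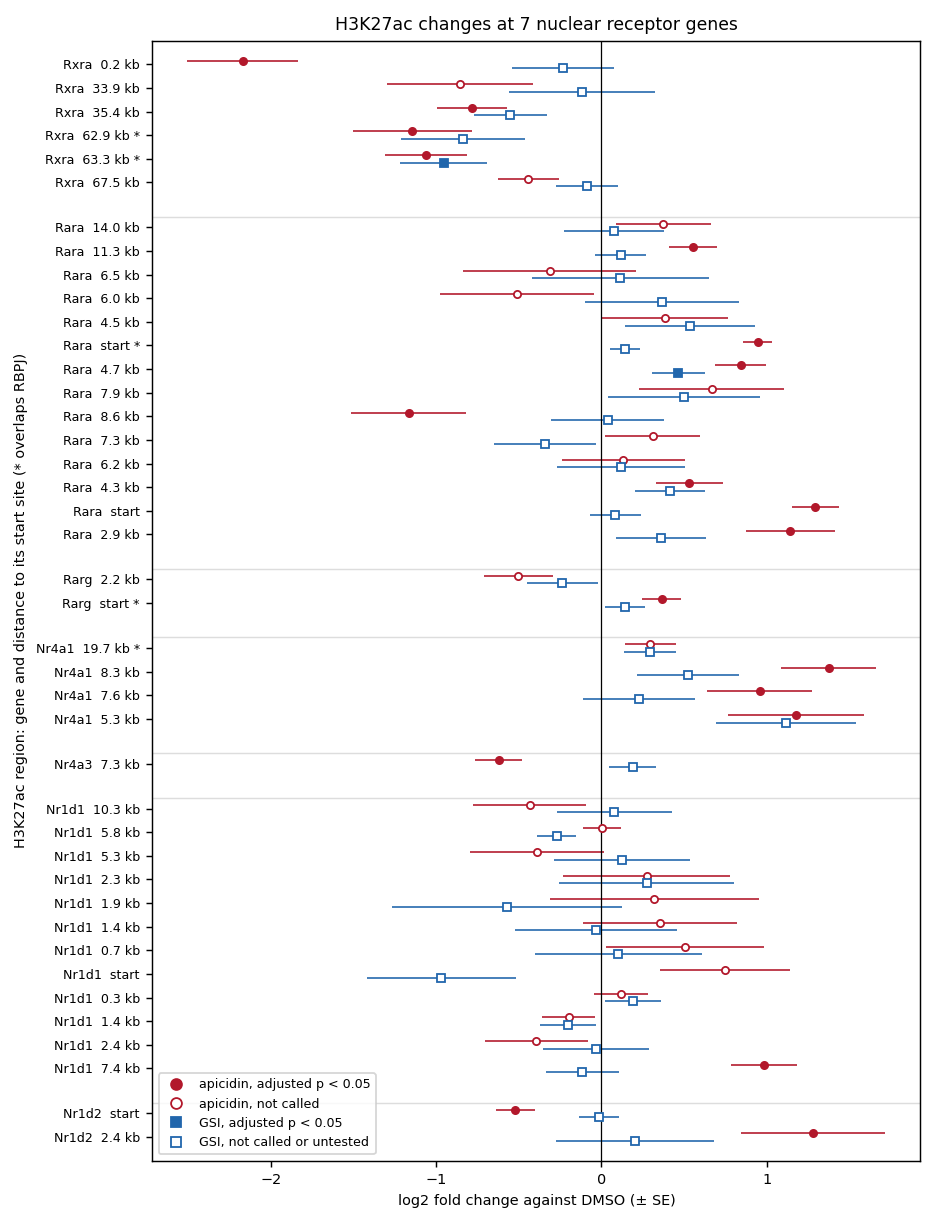
Log2 fold change against DMSO with its SE (horizontal axis) for the 41 regions of the 7 genes other than Nr3c1 (vertical axis, in genome order within a gene, with the distance to the start site), circles for apicidin and squares for GSI, filled where the adjusted p is under 0.05. Rxra lies to the left throughout, both Rara start regions are filled for apicidin only, and only 2 squares are filled, at Rara and Rxra.

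Nr3c1, the glucocorticoid receptor gene, had the strongest acetylation of the 8 genes, and its strongest regions were not called with apicidin. The strongest 2 of its 47 regions held 76.4% of the summed base mean: the start region (chromosome 18, 39640718 to 39652446, base mean 3919) and a region 26.0 kb upstream (39672936 to 39681943, base mean 4466, 9007 bp). With apicidin neither passed the test, at -0.02 ± 0.11 and -0.02 ± 0.06 in the authors' deposited table. With GSI the upstream region rose 1.34-fold (0.42 ± 0.06, adjusted p = 8.49e-12) and the start region had 0.20 ± 0.11 (adjusted p = 0.255) there. Derived levels of the upstream region were 4028 in DMSO, 3978 with apicidin and 5393 with GSI, so GSI stood above both others, and the difference between treatments was -0.44 ± 0.08 (adjusted p = 2.75e-06). At the start region they were 3750, 3696 and 4313, and the difference of -0.22 ± 0.16 did not pass. The apicidin SE of the start region was the highest among 84 regions of like strength (base mean within 1.1-fold) and 1.82 times their median. Both apicidin values changed sign on centring (0.08 each) and without the trend over base mean (0.06 each), so no direction is given for them.

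The weaker Nr3c1 regions rose with apicidin or were not called. Of the 47, 7 rose and 0 fell by DESeq2 in the authors' deposited table, the latter also at an unadjusted p under 0.05. Among all regions 9.69% were called higher and 14.1% lower. Of the Nr3c1 values 42 were above 0, with a median of 0.60, against 0.13 for all regions off a TSS below the median base mean. Of the 36 Nr3c1 regions below that median 2 rose (5.56%, with base means of the 36 from 10.95 to 60.1), close to the 4.52% called higher among all regions below it. Of the 11 others 5 rose, where 17.4% of all stronger regions off a TSS were called higher. The region 8.18 kb upstream (39655084 to 39658266), base mean 464, rose with both treatments in the authors' deposited table, 2.27-fold with apicidin (1.18 ± 0.14, adjusted p = 6.26e-16) and 1.56-fold with GSI (0.64 ± 0.14, adjusted p = 1.53e-04). Its derived levels were 288, 653 and 450 in DMSO, apicidin and GSI. Further upstream, regions at 38.2 and 41.9 kb rose by 0.51 ± 0.17 and 0.89 ± 0.21 with apicidin in the authors' deposited table.

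Nr3c1 is transcribed towards lower coordinates, and 25 of its regions lay on that gene-body side, the farthest of them at 127 kb. There 4 rose with apicidin in the authors' deposited table, at 6.28 kb (1.62 ± 0.41), 9.05 kb (0.74 ± 0.19), 13.8 kb (1.18 ± 0.31) and 27.01 kb (0.84 ± 0.16) from the start. The median on this side was 0.67 with apicidin and -0.18 with GSI, whereas on the upstream side, with 21 regions, it was 0.51 with apicidin and 0.29 with GSI. GSI values were below 0 at 15 of 25 gene-body regions and at 6 of 21 upstream ones, but only 3 and 5 of them were tested for GSI, and none on the gene-body side was called by DESeq2 (an unadjusted p under 0.05 was reached by 1 in each direction). The difference between treatments passed at 27.01 kb (1.02 ± 0.24, adjusted p = 5.38e-04) and at 9.05 kb (1.03 ± 0.29, adjusted p = 0.0064). Neighbouring regions of 1 locus share their chromatin and are not replicates, so these medians are descriptions.

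**Figure D3:**
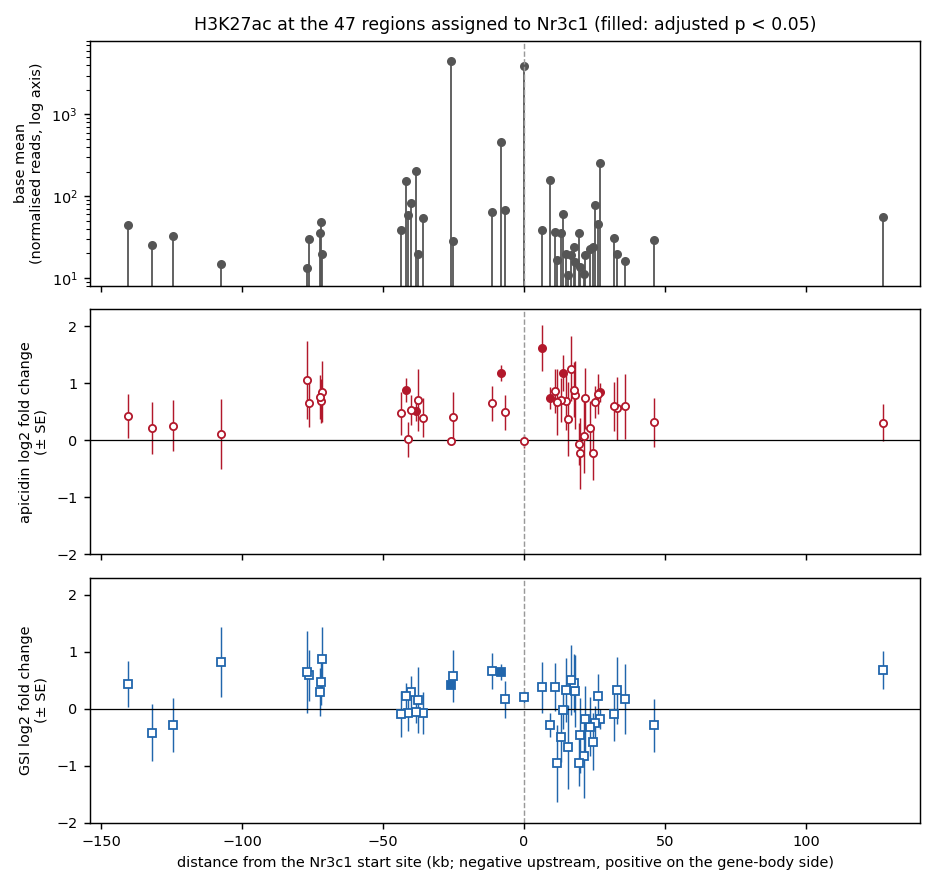
Base mean in normalised reads on a log axis (top), apicidin log2 fold change (middle) and GSI log2 fold change (bottom), each with its SE, for the 47 Nr3c1 regions by distance from the start site in kb, filled where the adjusted p is under 0.05. The start region and the region 26.0 kb upstream tower over the rest and lie near 0 with apicidin, and the filled GSI points are the upstream regions at 26.0 and 8.18 kb.

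Nr4a1, which encodes the orphan receptor Nur77, gained acetylation at 3 of its 4 regions with apicidin. None of its 4 regions covered the start. Those 8.34, 7.64 and 5.29 kb away rose by 1.38 ± 0.29 (adjusted p = 2.47e-05), 0.96 ± 0.32 (adjusted p = 0.0137) and 1.18 ± 0.41 (adjusted p = 0.0215) in the authors' deposited table. Their base means were 80.2, 63.1 and 35.9, and the derived levels of the first went from 47.8 in DMSO to 124 with apicidin and 68.7 with GSI. GSI values were 0.52 ± 0.31 (adjusted p = 0.299) for the first and, untested, 0.23 ± 0.34 and 1.12 ± 0.43 for the others in the authors' deposited table. The strongest Nr4a1 region, RBPJ-overlapping and 19.7 kb away (chromosome 15, 101076302 to 101077612, base mean 350), had 0.30 ± 0.15 with apicidin (adjusted p = 0.161) and 0.29 ± 0.16 with GSI (adjusted p = 0.233) there. After centring on the stronger regions, those of at least median base mean, its apicidin value passed (0.39).

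Nr4a3, whose product NOR1 is a close relative, moved in the opposite direction at its only region. That region, 7.31 kb from the start (chromosome 4, 48055424 to 48056808), base mean 370, fell to 0.650 times its DMSO value with apicidin in the authors' deposited table (-0.62 ± 0.14, adjusted p = 1.58e-04). GSI gave 0.19 ± 0.14 (adjusted p = 0.459) there. The derived levels were 398, 259 and 454 in DMSO, apicidin and GSI, and the difference between treatments was -0.81 ± 0.20 (adjusted p = 0.0017).

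Nr1d1 encodes REV-ERB alpha, and most of its 12 regions were not called. The strongest, 5.76 kb from the start and with a base mean of 716, had 0.0045 ± 0.1137 with apicidin and -0.27 ± 0.12 with GSI (adjusted p = 0.113) in the authors' deposited table. The Nr1d1 region at the highest coordinates, 7.35 kb from the start (chromosome 11, 98643908 to 98645205), base mean 153, was the only one called: it rose 1.98-fold with apicidin in the authors' deposited table (0.98 ± 0.20, adjusted p = 1.43e-05). GSI gave -0.11 ± 0.22 there, and the difference between treatments was 1.099 ± 0.30 (adjusted p = 0.0049). The narrow region over the Nr1d1 start was weak, with a base mean of 42.5, and had 0.75 ± 0.39 (adjusted p = 0.168) with apicidin and -0.97 ± 0.45, untested, with GSI in the authors' deposited table. Its difference of 1.72 ± 0.60 passed only narrowly (adjusted p = 0.0491). Stronger regions lay beside it, 286 and 1396 bp from the start, with base means of 224 and 250. Their differences between treatments, -0.07 ± 0.24 and 0.0032 ± 0.23, did not pass.

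Nr1d2, the REV-ERB beta gene, fell at its start and rose beside it with apicidin. The start region (chromosome 14, 19070286 to 19072329), base mean 699, fell to 0.697 times its DMSO value in the authors' deposited table (-0.52 ± 0.12, adjusted p = 1.45e-04), with -0.01 ± 0.12 for GSI. Derived levels were 781, 544 and 774 in DMSO, apicidin and GSI. The difference between treatments was -0.51 ± 0.17 (adjusted p = 0.0356), and on centring it no longer passed (-0.41). A decrease at a start region was common: 39.4% of all TSS-covering regions were called lower with apicidin and 8.01% higher. Against that background 3 of the 6 member start regions rose, both of Rara and that of Rarg, 1 fell, that of Nr1d2, and those of Nr3c1 and Nr1d1 were not called. The other Nr1d2 region, 2.38 kb away with a base mean of 31.9, rose by 1.28 ± 0.44 (adjusted p = 0.0183) in the authors' deposited table.

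**Figure D4:**
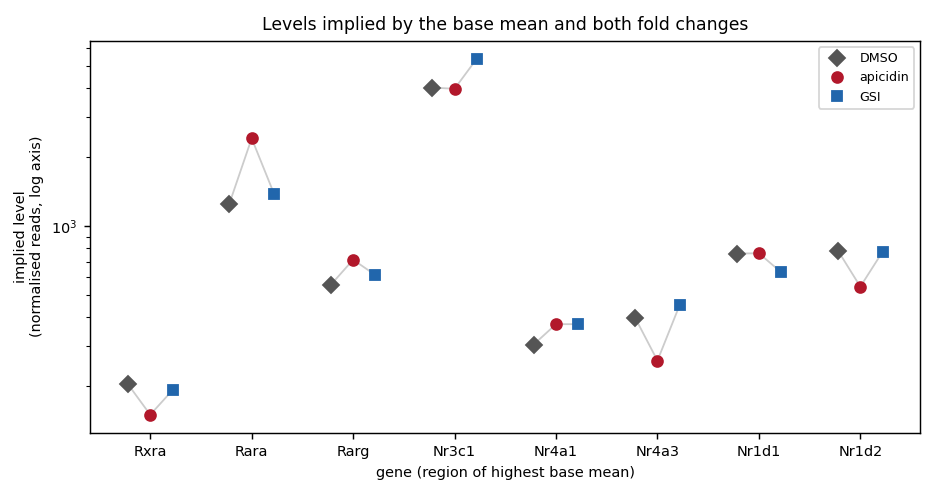
Levels in normalised reads (vertical log axis) that the base mean and both fold changes give for DMSO, apicidin and GSI at the strongest region, by base mean, of each of the 8 genes; no error is drawn because single libraries have no value. The apicidin level stands above both others at Rara (2417) and at Rarg (713), where its difference from GSI did not pass. It lies below both at Nr4a3 (259), Nr1d2 (544) and Rxra, whose change at this region did not pass. At Nr3c1 the GSI level is the upper one (5393).

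The rest of the receptor pathways was taken from 6 lists with 122 genes, 83 of which had a region, each counted by its region of highest base mean. With apicidin 12 of the 83 rose and 31 fell in the authors' deposited table, against 12% and 33.5% of all genes (45.5% together). Centring on the stronger regions (base mean of at least the median) gave 15 higher and 23 lower. With GSI 8 rose and 8 fell of 72 tested, against 7.74% and 6.8% (14.5% together). The mean over all regions of a gene, in place of its strongest region, gave 18 higher and 21 lower with apicidin, and 6 higher and 3 lower with GSI. Shares of all genes under centring or averaging are not given here, so the change in balance is not a result about the lists. By strongest regions, the 8 members gave 2 higher (Rara and Rarg) and 2 lower (Nr4a3 and Nr1d2) with apicidin, and 1 higher (Nr3c1) with GSI.

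Among 19 other nuclear receptor genes with a region, 4 rose and 8 fell with apicidin, by the DESeq2 calls in the authors' deposited table. By the same calls 3 of 12 tested fell with GSI while 0 rose. Shares over all genes were 12% higher and 33.5% lower with apicidin, and 7.74% and 6.8% with GSI. For GSI an unadjusted p under 0.05 gave 3 higher and 4 lower, untested genes included. Nr2f6, a repressor of T cell cytokine genes, fell by 0.74 ± 0.12, and the orphan receptor genes Nr2c1 and Nr2c2 by 0.59 ± 0.12 and 0.38 ± 0.07 with apicidin in the authors' deposited table. Thrb, the thyroid hormone receptor beta gene, rose by 1.42 ± 0.31 there, at a region 20074 bp from its start. Nr2f2 rose by 1.35 ± 0.34 at a remote region, 684417 bp away, and Esrrb by 0.42 ± 0.10 at 2179 bp. With GSI, the mineralocorticoid receptor gene Nr3c2 fell by 0.47 ± 0.11 at a region 126448 bp from its start. Esrra fell by 0.38 ± 0.13 at its start, and Thra by 0.25 ± 0.06 at 1625 bp, in the authors' deposited table.

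By their strongest regions, 9 of 17 coregulator genes fell and 0 rose with apicidin in the authors' deposited table, by DESeq2 (10 and 0 at an unadjusted p under 0.05), against the 33.5% and 12% of all genes given above. Their weaker regions also rose: of all 225 coregulator regions 27 were higher and 24 lower, against 9.69% and 14.1% of all regions. Of the 27, 13 belonged to Nrip1, a corepressor gene with 75 regions, and 12 to Tbl1xr1, which encodes a corepressor subunit. The methyltransferase gene Nsd1 fell by 1.02 ± 0.095 with apicidin in the authors' deposited table. The coactivator gene Ncoa6 fell by 0.86 ± 0.11 at a region 31581 bp from its start, and Ncoa2 by 0.77 ± 0.08 at its start. With GSI 2 of the 17 genes rose and 3 fell by strongest regions in the authors' deposited table, against 7.74% and 6.8% of all tested genes. Ncoa3 rose by 0.52 ± 0.08 at a region 34443 bp from its start, and Nrip1 by 0.19 ± 0.07 at its start. Among those that fell were Ncoa6, by 0.34 ± 0.11 at the region named above, and Lcor, by 0.29 ± 0.11 at 65719 bp. Retinoid pathway genes, which include Tgm2, a transglutaminase gene, beside genes of synthesis, binding and breakdown, had a region at 4 of 16. By DESeq2 0 of the 4 strongest regions were called in either comparison (1, that of Tgm2, was higher with apicidin at an unadjusted p under 0.05). Of all 32 regions of these genes 2 were higher and 4 lower with apicidin, against 9.69% and 14.1% of all regions. With GSI 1 of 12 tested was higher, against 6.62% of all tested regions. The regions called higher all belonged to Tgm2.

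Glucocorticoid chaperones and targets were mixed. With apicidin 4 of 14 genes rose and 3 fell by strongest regions, against 12% and 33.5% of all genes. Of all 148 regions of these genes 14 were higher and 10 lower in the authors' deposited table, against 9.69% and 14.1% of all regions. Hsd11b1, which encodes an enzyme that regenerates active glucocorticoid, rose by 0.77 ± 0.10 with apicidin and 0.51 ± 0.10 with GSI, and the clock gene and receptor target Per1 by 0.61 ± 0.09 and 0.55 ± 0.09 there. Sgk1, a kinase gene, rose by 0.65 ± 0.13 with apicidin at a region 22616 bp from its start. With apicidin the phosphatase gene Dusp1 fell by 0.58 ± 0.10, and the chaperone genes Hsp90aa1 and Ptges3 by 0.44 ± 0.14 and 0.27 ± 0.09, in the authors' deposited table. With GSI, by strongest regions, 3 genes of the list rose, 1 fell and 9 of 13 tested were not called. Of all genes tested so, 7.74% rose and 6.8% fell. Over all regions of the list the balance was reversed: of 71 tested, 5 were higher, from 3 genes, and 12 lower, from 6 genes. Among all tested regions 6.62% were called higher and 7.17% lower. Tsc22d3, which encodes GILZ, rose by 0.60 ± 0.08 (adjusted p = 1.67e-12) and Fkbp5, which encodes a receptor cochaperone, fell by 0.44 ± 0.06 (adjusted p = 1.09e-10) in the authors' deposited table.

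Immediate early genes, which share inducing signals with the NR4A genes, rose in 4 and fell in 5 of 16 with apicidin by strongest regions. The shares of all genes were 12% and 33.5%. Over all 93 regions of these genes 22 were higher and 12 lower in the authors' deposited table, against 9.69% and 14.1% of all regions. Junb rose by 0.76 ± 0.09, Dusp2 by 0.30 ± 0.07 and Ier2 by 0.30 ± 0.07 there, each at its start. Jun fell by 0.77 ± 0.11 at a region 108617 bp from its start, and Egr2 by 0.39 ± 0.09 at 32737 bp. With GSI Jund, Ier2 and Dusp2 rose by 0.21 ± 0.06, 0.24 ± 0.07 and 0.19 ± 0.07, and Myc fell by 0.40 ± 0.06, in the authors' deposited table. Over all regions of the immediate early genes 11 of 51 tested were higher with GSI and 2 lower, against 6.62% and 7.17% of all tested regions. Of 16 clock genes 2 rose, Per1 among them, and 7 fell with apicidin in the authors' deposited table, against 12% and 33.5% of all genes. Csnk1e, a clock kinase gene, fell by 0.54 ± 0.10 and the repressor gene Cry1 by 0.81 ± 0.16 there. By strongest regions, Per1 was the only one of 14 tested clock genes called with GSI, where 14.5% of all genes were called. Over all regions of the clock genes 3 of 40 tested, from 2 of the genes, were higher, against 6.62% of all tested regions.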

How the data were processed

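The authors handled the reads with deepTools, SAMtools, Bowtie2 and FastQC on mm9, per the submitters' processing notes, which list no versions. The build was taken for all region coordinates. Region caller, counter, depths and minimum RBPJ overlap: not given in the sources used here. Per the file headers, the authors deposited DESeq2 output for 56342 regions: a base mean, which is a signal (mean of normalised read counts), log2 fold changes with SEs, a Wald score, p-values and adjusted p-values. Headers name the treatment, and DMSO, the only control, was taken as the reference. Adjusting the deposited p-values by Benjamini-Hochberg returned the deposited adjusted ones within 1.03e-06. Adjusted p-values for GSI exist for 25756 regions, all with a base mean of at least 72.1. The table was not refitted, because it was used as deposited and holds no value per library.

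Computed here, with Python 3.11.15, pandas 2.3.3, NumPy 2.4.6 and SciPy 1.17.1, were the apicidin-minus-GSI test (tested on simulated data), the derived levels, counts and motif matches. No region had an SE under the floor that counting alone would give, and the headers do not say whether fold changes were shrunken. Genes, lists and motifs were chosen with earlier results of these data known. The regions given with values are, per gene, the strongest, those covering a TSS, those overlapping RBPJ and that of smallest p in each comparison. Other called regions and some uncalled ones were added after their values were seen. From each list up to 3 called genes per direction and comparison, by smallest adjusted p, are named; some genes that this rule picks are not reported here. The alternatives centred the fold changes, subtracted their trend over base mean, and changed the threshold, filter, distance limit, minimum change, SE of the difference and region per gene.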

Additional observations from a re-analysis of the deposited data

How the results depend on the processing

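Counts of called member regions held within 1.5 times under most settings. Shares of all regions or genes under the alternatives are not given here, so these counts are compared only with the main setting. With apicidin, increases numbered 13 to 22 and decreases 5 to 7 under all 7 alternatives run, against 19 and 7. With GSI, requiring an absolute log2 change of at least 0.5 left 1 increase in place of 3, and keeping to regions within 50 kb of the start removed the Rxra decrease, leaving 0 in place of 1. Allowing for the covariance of the shared DMSO libraries, assumed at a correlation of 0.5, raised the regions higher with apicidin than with GSI from 6 to 16, and those lower from 4 to 5. Averaging all regions of a gene gave 3 pathway genes lower with GSI in place of 8.

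No called value of a named region changed sign, while the apicidin values of both strongest Nr3c1 regions, which were not called, went from -0.02 to 0.08 on centring and to 0.06 without the trend. Of 102 values of named regions under centring, trend subtraction or the covariance, 96 kept their call. The RBPJ-overlapping Nr4a1 region 19.7 kb away passed with apicidin on centring (0.39) and without the trend (0.43). The Nr1d2 start region lost its difference between treatments on centring (-0.41). The covariance made the difference pass at the Nr3c1 region 8.18 kb upstream (0.54, and 0.63 on centring) and at the Nr4a1 region 8.34 kb away (0.85). Centring moved apicidin values by 0.10, the median of the stronger regions being -0.10. No paired analysis was possible because the table holds no value per library, and for the same reason no replicate could be left out. Depth is unknown, so values of regions under a base mean of 72.1, most of the members, are the least certain.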
